A study of Homo sapiens with 2 samples.

Results

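The genes described here are 10 well-known targets and feedback regulators of Wnt signaling, namely RNF43, ZNRF3, AXIN2, NKD1, NOTUM, LGR5, SP5, ASCL2, TCF7 and LEF1. They were chosen by name and not by a cut on their values, but with earlier results of these data known. Every non-control probe whose RefSeq transcript belongs to 1 of these genes was taken, which gave 14 probes of the 50599 on each array and 10 of the 21613 genes that could be named. The cells were HCT116, an established human colon cancer cell line. In the mock group, they carried the mock pEB vector. In the HOXA5 short group, they carried the same vector with HOXA5 short RNA. This non-coding RNA comes from the HOXA5 locus and lacks exon 1 of the gene. Both groups passed through 2 weeks of selection in blasticidin, as far as the shared description of the treatment tells. There was 1 Agilent one-color array per group, and both lay on the same slide. No replicate array stood beside either, so each value compares the pair of arrays and none was tested.

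In cells without a Wnt signal, a cytoplasmic complex built on Axin and APC marks β-catenin for destruction. Wnt binding to Frizzled and LRP receptors stops this complex, and β-catenin then enters the nucleus and turns on genes together with the TCF/LEF factors. Many of these targets act back on the pathway. RNF43 and ZNRF3 remove Frizzled from the cell surface, AXIN2 rebuilds the destruction complex, NKD1 binds Dishevelled, and NOTUM inactivates secreted Wnt. In the intestine, LGR5 and ASCL2 mark the stem cells at the crypt base. HCT116 cells carry a mutation in CTNNB1 that stabilizes β-catenin, so the level of each target in the mock cells is given beside its difference.

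TCF/LEF factors bind short sites close to CTTTGAT. The 250 bases before each start in the RefSeq promoter set (GRCh38.p14) were searched on both strands for CTTTGAT and for the spellings that differ from it at the end (CTTTGAA, also the form CTTTGTT, and the form CTTTGTA). Of the 10 genes, 4 had an entry (LEF1, RNF43, SP5 and TCF7), with 6 entries between them, and 2 of these 6 held a match. The matching stretches of SP5 and TCF7 are shown because both genes were detected on both arrays. They are written from 5′ to 3′ with the matches in capitals. The SP5 stretch is chr2:170715164-170715284 and the TCF7 stretch is chr5:134123543-134123599, both on the plus strand.
SP5: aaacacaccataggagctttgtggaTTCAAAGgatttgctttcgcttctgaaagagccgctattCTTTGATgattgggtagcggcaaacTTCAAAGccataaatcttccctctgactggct
TCF7: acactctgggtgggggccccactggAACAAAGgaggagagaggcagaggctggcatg
The SP5 stretch held 3 matches, at 148, 109 and 84 bases before the start. The outer ones are CTTTGAA on the minus strand and the middle one is CTTTGAT on the plus strand. Across all 35116 promoter entries, 12.0% held at least 1 of the 4 spellings and 0.122% held 3 or more. The TCF7 stretch held 1 match, CTTTGTT on the minus strand, at 50 bases before 1 of its 2 listed starts. A match in letters is a description of the sequence and not a measured binding site, and no binding was measured in these cells.

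The label of the HOXA5 short array was checked first with the single HOXA5 probe. Its processed signal was 39.4 in mock cells and 346 with HOXA5 short RNA, and the log2 difference was 2.83. The sources used here do not give which part of HOXA5 this probe reads. Of the colon epithelial markers, 5 of 9 were compared, among them EPCAM at 0.06 and CDH1 at -0.05, while neither array showed KRT20, VIL1, CDH17 or LGALS4 well above background. Of the markers of other cell types with a probe, COL1A1 was compared out of 7 fibroblast genes, at 0.13. None of the 4 leukocyte or 4 endothelial genes was compared, and CD14 was well above background on the HOXA5 short array only. The HOXA5 probe was thus brighter on the array labelled for HOXA5 short RNA, and the epithelial markers that were compared stayed within 0.18 of 0 on the log2 scale.

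The processed signal is the brightness of a spot after background subtraction by the scanner software, in arbitrary units. A log2 level is the log2 of this signal less the 75th percentile of its array, which was 35.6 for the mock array and 44.0 for the other. A log2 difference is the level with HOXA5 short RNA less the level in mock cells. The software marked 18421 probes (36.4%) as well above background in mock cells and 18952 (37.5%) with HOXA5 short RNA. Probes that carried this mark on both arrays were compared, and 11994 genes had such a probe. Their median log2 difference was -0.02, and the central 90% lay between -0.39 and 0.45. The error of a probe was taken from replicated probes, which occupy several spots. The SD of a single spot's difference fell with brightness, from 0.58 for signals of 5 to 15, through 0.29 for 15 to 50 and 0.19 for 50 to 200, to 0.15 above 200. This SD holds no spread between cultures, and it counts replicated probes whether or not they were well above background. For signals of 5 to 15, the differences of all compared probes had an SD of 0.36, below the single-spot SD of 0.58.

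Of the 10 Wnt target and feedback genes, 6 were well above background on both arrays (RNF43, ZNRF3, AXIN2, NKD1, SP5 and TCF7), and 4 were on neither (LGR5, ASCL2, LEF1 and NOTUM). In the processed signals the 6 compared genes had a log2 difference above 0, with a median of 0.25 and a range from 0.03 for RNF43 to 0.67 for NKD1. The exception was AXIN2, which lay below 0 when its brightest probe alone was used (-0.06) or when the background was corrected with normexp (-0.02). Normexp subtracts the local background of each spot, models what is left over the whole array and adds an offset of 50 to each signal. It also lowered the member median to 0.10, SP5 to 0.09 and TCF7 to 0.12. By construction, the offset pulls the log2 differences of dim probes toward 0, and HOXA5 itself went from 2.83 to 1.91. A small value under normexp therefore cannot tell whether a dim probe differed. Among all genes compared, 45.5% lay above 0. No member reached 2-fold in either direction, while 0.642% of all genes did so upward and 0.258% downward. At 1.5-fold, 1 member was higher (NKD1) and 0 were lower, where 2.78% of all genes were higher and 1.6% were lower. The 6 values are 6 genes read on the same pair of arrays, so they share any difference between those arrays and do not replicate each other. In RNA from whole cultures, fewer cells with a transcript and less transcript per cell cannot be told apart.

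**Figure D1:**
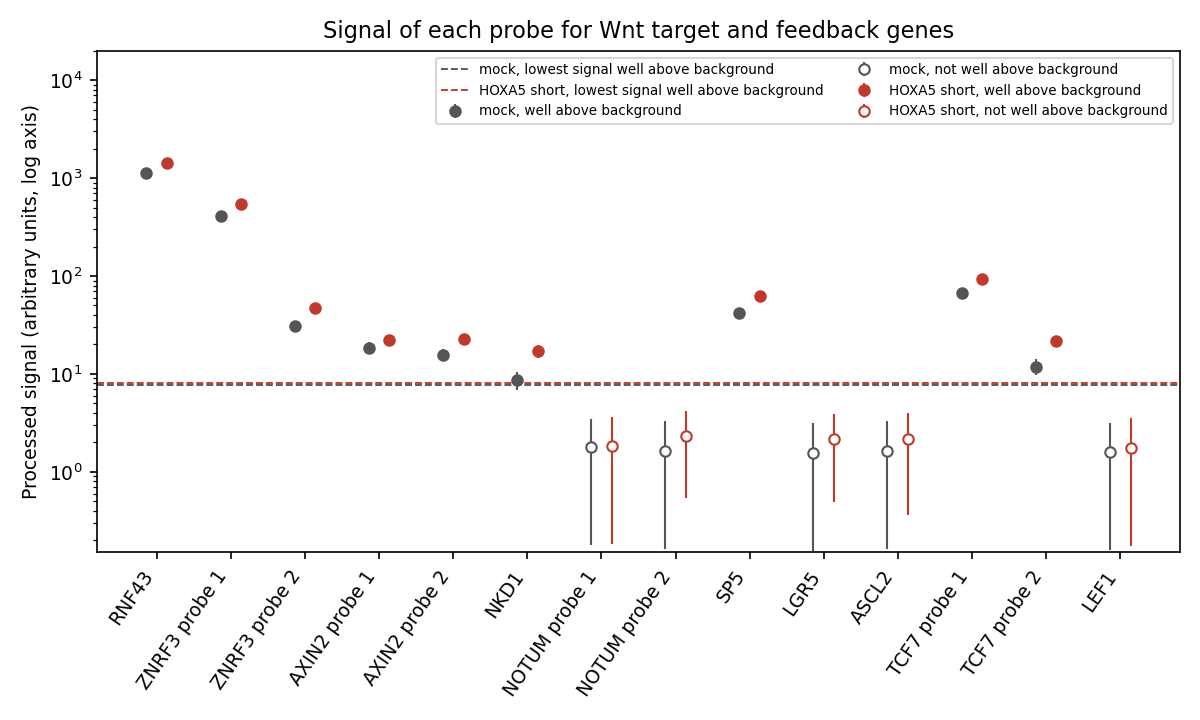
Processed signal (arbitrary units, log axis) of each probe for the 10 genes on the mock array (grey) and the HOXA5 short array (red), before scaling. Bars are the scanner software's error, with the lower part cut short where the error is about as large as the signal. Open points were not well above background, and dashed lines mark the lowest signal that was. Probes of a gene are numbered from the brightest on the mock array. The 9 filled pairs lie above the lines, with NKD1 nearest to them on the mock array, and the 5 open pairs lie between 1.56 and 2.34.

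The receptor-level feedback genes RNF43 and ZNRF3 code for transmembrane ubiquitin ligases that clear Frizzled from the cell surface. The RNF43 probe (NM_017763) read 1125 ± 112 (scanner error) in mock cells and 1418 ± 142 with HOXA5 short RNA. After scaling, its log2 levels were 4.98 and 5.01, a difference of 0.03 with a single-spot SD of 0.15. RNF43 was thus bright in both groups, and its scaled levels differed by less than the error of a spot. The brighter of the 2 ZNRF3 probes (NM_001206998) read 411 ± 41.1 in mock cells and 550 ± 55 with HOXA5 short RNA, a log2 difference of 0.12. The dimmer ZNRF3 probe read 30.7 ± 3.51 and 47.2 ± 5.07, a log2 difference of 0.32. Both ZNRF3 probes were higher on the HOXA5 short array, the brighter by less than its single-spot SD of 0.15 and the dimmer by slightly more than its SD of 0.29. The mean of both was 0.22.

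AXIN2, the feedback copy of the Axin scaffold and the target most often used as a readout of β-catenin activity, was read by 2 probes (NM_004655). One read 18.6 ± 2.58 in mock cells and 22.0 ± 2.93 with HOXA5 short RNA, a log2 difference of -0.06. The other read 15.6 ± 2.19 and 22.6 ± 2.82, a log2 difference of 0.23. The probes of AXIN2 disagreed in sign, and each difference was smaller than the single-spot SD of 0.29. The mean was 0.09, or 1.06-fold. NKD1, which binds Dishevelled and dampens the signal inside the cell, had 1 probe (NM_033119). It read 8.69 ± 1.86 in mock cells, close to the lowest signal still well above background there (7.74), and 17.1 ± 2.47 with HOXA5 short RNA. The log2 difference of 0.67, or 1.59-fold, was the highest among the 10 genes, and it was measured at the dim end where a single spot has an SD of 0.58. The difference of NKD1 fell to 0.07 under normexp, whose offset of 50 is larger than either of these signals. It rose to 1.14 when the arrays were scaled to the RNA spike-ins.

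NOTUM, a secreted esterase that strips the lipid from Wnt proteins, was not well above background with either of its probes (NM_178493). These read 1.64 and 1.77 in mock cells and 2.34 and 1.83 with HOXA5 short RNA. LGR5, a receptor for R-spondins and a marker of intestinal stem cells, read 1.56 in mock cells and 2.19 with HOXA5 short RNA (NM_003667). ASCL2, a basic helix-loop-helix factor of the same stem cells, read 1.64 and 2.16 (NM_005170). These signals lay well below the lowest ones marked well above background, 7.74 for mock cells and 8.16 for HOXA5 short RNA, and the scanner errors, 1.56 to 1.83, were about as large as the signals. LEF1, a partner of β-catenin on DNA, read 1.58 and 1.76 (NM_016269). No fold is given for these 4 genes, and a level below the reach of the probe is not shown to be absent. Among all named genes, 41.8% likewise had no probe well above background on either array, so 4 of 10 is close to that share.

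SP5, a zinc finger factor that Wnt signaling induces and that binds many of the same target genes, had 1 probe (NM_001003845). It read 42.0 ± 4.56 in mock cells and 62.9 ± 6.58 with HOXA5 short RNA. The log2 levels were 0.24 and 0.52, a difference of 0.28 with a single-spot SD of 0.19. SP5 was higher by more than this SD, but by less than the SD of 0.29 for signals of 15 to 50, where its mock signal lay. The spots around the SP5 probe were also higher on the HOXA5 short array, with a median of 0.11 over 35 neighbours, of which 2 were 2-fold away, and less this local median the SP5 difference was 0.17. This value lies within the single-spot SD. The 0.09 under normexp is pulled toward 0 by the offset and cannot be set against that SD, which comes from processed signals. The other compared member probes in a single spot had no neighbour 2-fold away, with local medians between -0.05 and 0.09. Of the 9 used spots of the 10-spot TCF7 probe, described next, 1 had 2 neighbours 2-fold away, and the local medians of the 9 lay between -0.10 and 0.02.

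**Figure D2:**
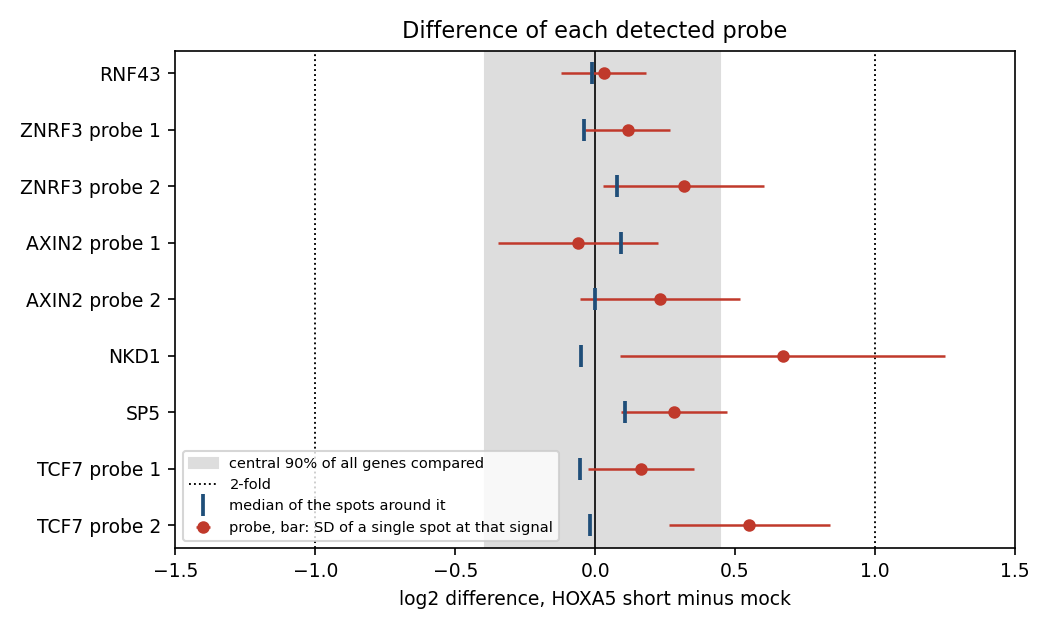
Log2 difference, HOXA5 short minus mock, of the 9 compared probes, with bars for the SD of a single spot at that signal. The grey band holds the central 90% of all genes compared, dotted lines mark 2-fold, and blue ticks give the median of the spots around each probe (for the 10-spot TCF7 probe, the median over its 9 used spots). The points run from -0.06 (AXIN2) to 0.67 (NKD1), 8 of 9 lie above 0, and none reaches a dotted line.

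TCF7, a partner of β-catenin on DNA and itself a target of the pathway, was the most closely measured of the 10 genes, since 1 of its 2 probes (NM_003202) was printed in 10 spots. Of these, 9 were used and 1 was left out as an outlier. In mock cells the lowest, median and highest of the 9 spots were 61.6, 67.6 and 70.9, and with HOXA5 short RNA they were 84.0, 92.5 and 99.4. Before scaling, all 9 spots of the HOXA5 short array were thus brighter than the brightest mock spot. That array was brighter as a whole, and the same held for the replicated probes of CCND1 (9 of 9 spots) and MYC (10 of 10). In the other detected Wnt probes in 10 spots it held for 7 of 9 (GSK3B and ROR1), 7 of 10 (WNT10A), 6 of 10 (FZD5) and 0 of 10 (CTNNB1). The share over all replicated probes was not computed. The log2 difference after scaling was 0.16 ± 0.04 (SE over 9 spots, SD 0.13), with 8 of 9 spots above 0 and a range from -0.04 to 0.32. Scaling took 0.30 from every log2 difference, the log2 ratio of the 75th percentiles of the arrays, which is more than the scaled difference that was left. After scaling, 8 of the 9 spots of the HOXA5 short array lay above the highest mock spot. For the other detected Wnt probes in 10 spots this was 3 of 10 for MYC, 2 of 9 for ROR1 and 1 of 10 for WNT10A. It was 0 for CCND1, CTNNB1, FZD5 and GSK3B. The spots share the RNA, the labeling and the array of their group, so this SE covers the printing and reading of spots and not the cultures. The other TCF7 probe, in a single spot, read 11.9 ± 2.15 in mock cells and 21.5 ± 2.89 with HOXA5 short RNA, a log2 difference of 0.55 with a single-spot SD of 0.29. Both TCF7 probes were higher on the HOXA5 short array, by amounts that differed by 0.39, and their mean was 0.36.

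**Figure D3:**
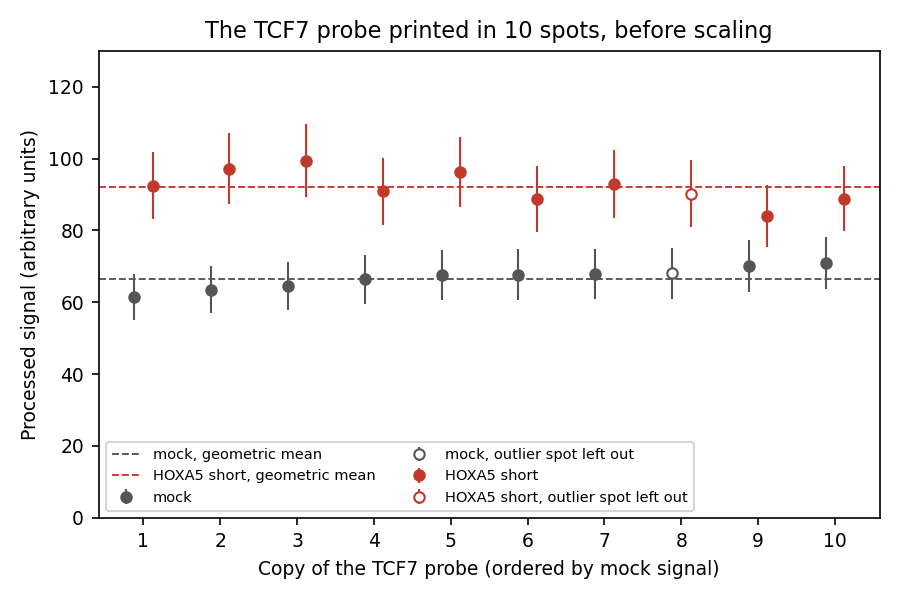
Processed signal (arbitrary units, before scaling) of the TCF7 probe printed in 10 spots, ordered by the mock signal. Bars are the scanner software's error, dashed lines are the geometric means of the 9 used spots, and open points are the spot left out. The mock spots lie between 61.6 and 70.9 and the HOXA5 short spots between 84.0 and 99.4. They do not overlap before scaling, where the HOXA5 short array was brighter as a whole.

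In all, 4 of the 9 compared probes differed by more than the SD of a single spot of their brightness, namely NKD1, SP5 and the dimmer probes of ZNRF3 and TCF7, and all 4 were higher on the HOXA5 short array. SP5 was beyond this SD before its local median was subtracted and not after. The 10-spot TCF7 probe, a mean of 9 spots, was also set against the SD of a single spot, 0.19. Its difference was 0.16 with an SE of 0.04 over those spots. The brightness range was set by the mean log2 signal of both arrays. SP5 and the dimmer TCF7 probe fell in ranges that start at 50 and 15, though their mock signals were 42.0 and 11.9. Against the SD of the next dimmer range, 0.29 and 0.58, neither was beyond it. The 0.58 counts replicated probes whether or not they were well above background. The differences of all compared probes in that range had an SD of 0.36. Among all 17938 probes compared, in 1 spot or in several, 35.8% differed by more than the single-spot SD of their brightness and 17.1% did so upward. For signals of 5 to 15, where NKD1 lay, 11.2% did so and 3.47% upward, against 37.4% to 39.1% in the brighter ranges. The median difference of all compared probes was -0.08 for signals of 5 to 15 and between -0.02 and -0.01 in each brighter range, so at the members' brightness the probes as a whole lay slightly below 0.

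The rest of the pathway was described with 8 lists that hold 122 further genes, of which 120 had a probe and 74 were compared. Their median log2 difference was 0.07, and 43 of the 74 lay above 0, where 45.5% of all genes compared did. None reached 2-fold. At 1.5-fold, TCF7L1 and LGR6 were higher and RSPO4 and APC were lower, which is 2 of 74 in each direction. Among all genes compared, 2.78% were higher and 1.6% were lower. Under normexp, with its offset, 0 of the 74 were higher and 0 lower. Less the local median, 3 genes were higher and 1 was lower, and APC, at -0.53, no longer reached 1.5-fold. With scaling to the spike-ins, 31 were higher and 0 lower, where 96.6% of all genes compared lay above 0. This scaling raised every difference, so values slightly below 0 in these lists lay above 0 under it. Another 3 genes were well above background on 1 array only, and 43 were on neither.

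Of 37 other Wnt target genes, 22 were compared, with a median of 0.10 and 14 above 0. They ran from -0.27 for SLC12A2, a chloride cotransporter, to 0.37 for MMP7, a matrix metalloprotease. MYC, a driver of proliferation, had a 10-spot probe that read 2938 in mock cells and 3962 with HOXA5 short RNA. Its log2 difference was 0.13 (SD 0.13 over 10 spots), and 10 of 10 spots lay above 0. CCND1, a cyclin of the start of the cell cycle, was at -0.02, CD44, a hyaluronan receptor, at 0.01, and SOX9, a crypt transcription factor, at -0.25. The 3 probes of EPHB2, an ephrin receptor of crypt cells, gave -0.10, 0.13 and 0.75, and the highest came from the dimmest probe. The other targets thus lay on both sides of 0, and none of the 22 compared reached 1.5-fold. A second probe of CEMIP, which takes part in the breakdown of hyaluronan, read 2.21 in mock cells and 16.0 with HOXA5 short RNA. It was well above background on the HOXA5 short array only and at least 1.68-fold higher, with 5 of its 42 neighbours 2-fold away, while the compared CEMIP probe gave -0.01. CEMIP was named after its values were seen.

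The ligands and what releases them came next. Of 19 Wnt ligands, 7 were compared, with a median of 0.10, from -0.23 for WNT7B to 0.33 for WNT16, but under normexp the median was -0.05 and WNT16 was at -0.01, and 12 did not pass the background of either array. PORCN, which attaches the lipid to Wnt, was at -0.02, and WLS, which carries Wnt to the cell surface, was at 0.50 with probes at 0.31 and 0.70. Of 12 secreted inhibitors, DKK1, which blocks LRP receptors, was the only one compared, at 0.08. Of 4 R-spondins, which protect Frizzled from RNF43 and ZNRF3, RSPO4 was the only one compared. It read 19.7 ± 2.49 in mock cells and 14.7 ± 2.23 with HOXA5 short RNA, a log2 difference of -0.72. Most extracellular Wnt ligands and inhibitors, NOTUM among them, were thus below the reach of the arrays in both groups.

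Of 18 receptors and co-receptors, 15 were compared, with a median of 0.07, from -0.55 for FZD7, a Frizzled receptor, to 0.66 for LGR6, an R-spondin receptor of the same family as LGR5. LGR6 read 12.7 ± 2.04 in mock cells and 24.8 ± 3.04 with HOXA5 short RNA, and under normexp its log2 difference was 0.06. LGR4, another receptor for R-spondins, was at 0.07, and the Wnt co-receptors LRP5 and LRP6 were at 0.17 and -0.18. LGR6 and LGR4 were thus measured on both arrays and LGR5 on neither.

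Of 18 genes for Dishevelled and the destruction complex, 16 had a probe and all 16 were compared. Their median was -0.08, with 6 above 0 and 10 below, but it was 0.06 under normexp, 0.02 with scaling to the median and 0.39 with scaling to the spike-ins. The highest was DVL3, a Dishevelled, at 0.46. CTNNB1, which codes for β-catenin, had a 10-spot probe that read 1575 in mock cells and 1768 with HOXA5 short RNA. Its log2 difference after scaling was -0.14 (SD 0.09 over 10 spots), and 10 of 10 spots lay below 0, while its other probe gave -0.05. The CTNNB1 signal was thus bright in both groups, and its mean difference was -0.10, against 0.07 under normexp and 0.37 with scaling to the spike-ins. AXIN1, the constant form of the Axin scaffold, was at 0.25, and GSK3B, the kinase that marks β-catenin, was at -0.15. APC, the tumor suppressor of the complex, was the lowest at -0.77, from a probe that read 13.7 ± 2.21 and 9.96 ± 2.11, where a single spot has an SD of 0.58, and it was at -0.26 under normexp. A 10-spot APC probe was not well above background on either array.

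Of 14 nuclear partners of β-catenin, 11 were compared, with a median of 0.17 and 8 above 0, from -0.14 for TLE3, a co-repressor, to 0.89 for TCF7L1. TCF7L1, the TCF factor that acts mainly as a repressor, had the largest difference of any gene in these lists. It read 16.6 ± 2.58 in mock cells and 37.9 ± 4.38 with HOXA5 short RNA, 1.85-fold, against a single-spot SD of 0.29, and under normexp its log2 difference was 0.18. The mean of TCF7L2, the main TCF factor of intestinal epithelium, was 0.17, from probes at 0.02 and 0.32, and another probe was well above background on the HOXA5 short array only, at least 1.5-fold higher. BCL9, a co-activator, was at 0.16. A probe of PYGO2, another co-activator, was well above background on the mock array only. It read 13.9 ± 2.33 there and 8.40 ± 2.27 on the other, 2.05-fold lower as measured, where a single spot has an SD of 0.58. The other, bright PYGO2 probe gave -0.01. The TCF/LEF family therefore held TCF7 at 0.36, TCF7L1 at 0.89 and TCF7L2 at 0.17 (-0.01 under normexp), with LEF1 not well above background.

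**Figure D4:**
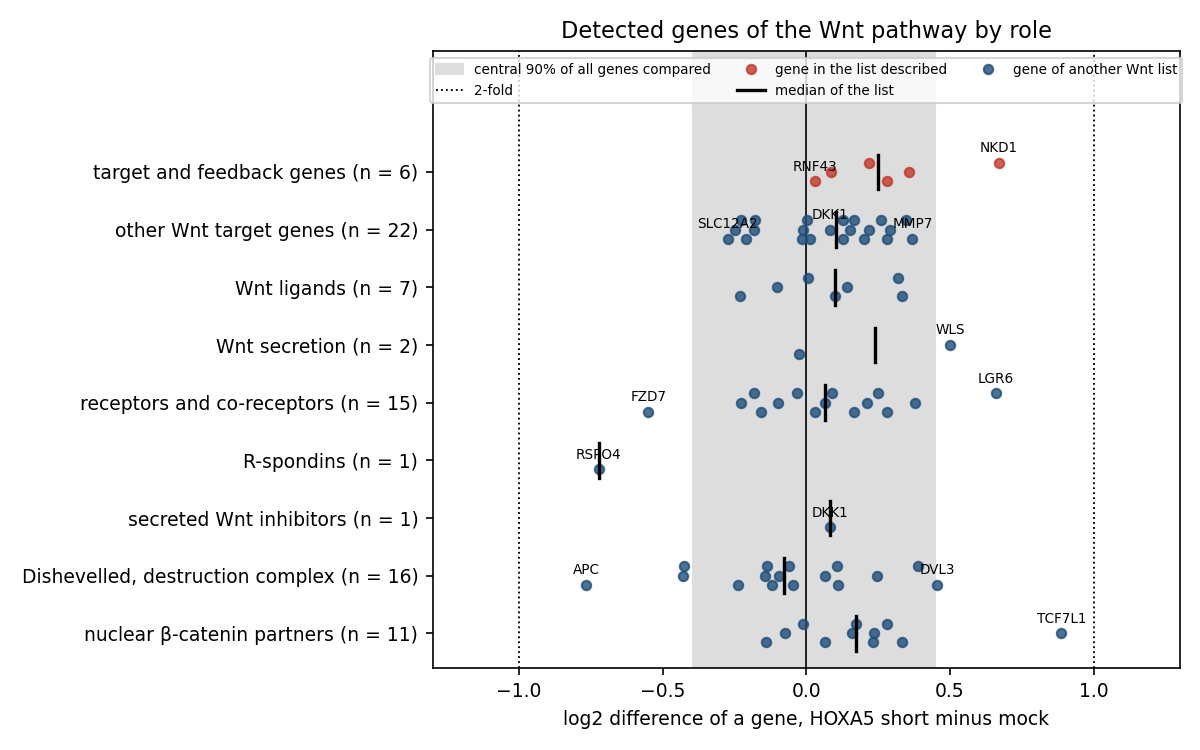
Log2 difference, HOXA5 short minus mock, of each compared gene by its role in the pathway, with n the number of genes compared. Red points are the 6 target and feedback genes, blue points are genes of the other lists, black bars are list medians, the grey band holds the central 90% of all genes compared and dotted lines mark 2-fold. The median was 0.25 for the 6 genes and between -0.08 and 0.24 for the other lists with more than 1 gene, and no gene reached 2-fold.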

How the data were processed

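Total RNA of 1 mock and 1 HOXA5 short culture was labeled with Cy3 and read on Agilent SurePrint G3 arrays (human design on hg19). Per the file headers, Feature Extraction 11.5.1.1 wrote the deposited intensity of each spot (processed signal, median foreground and median local background), its error and its flags (well above background, outlier, saturated). The authors also deposited log2 values, each probe centered on its mean over both arrays, with no scaling stated. Their methods name GeneSpring and a filter on the lowest 20% of signals and on flags.

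Outlier spots were left out, log2 signals of a probe's spots were averaged, and each array's 75th percentile over its non-control probes was subtracted. Compared probes were well above background on both arrays and above the lowest 20% of signals. A gene is the mean of its compared probes. Accessions were matched without versions to RefSeq records (GRCh38.p14), which named 30001 probes (59.3%). No spot was saturated. A probe detected on 1 array only was given a bound against its own dim value or the lowest signal marked well above background there, whichever was higher. The single-spot SD came from probes with at least 5 usable spots, and 590 of them were well above background. Neighbours were spots within 5 rows and columns.

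The members, the lists and the rule for named genes were chosen with earlier results of these data known. Named were all 10 members, the lowest and highest gene of each list, genes at least 1.5-fold apart, genes with a bound of at least 2-fold, and a set of pathway genes picked by name. Each group had 1 array, which allows no test and limits the precision. Alternatives were other scalings (median, 75th percentile over detected probes, spike-ins), quantile and cyclic loess normalization, normexp (offset 50), the deposited log2 values, subtraction of local medians, a stricter filter, no filter, 1 probe per gene (the brightest), and thresholds of 1.5-fold and 3-fold. Added after seeing the data were the medians by brightness, the share of all probes beyond the single-spot SD and the comparison of dim with bright probes of a gene. The gene differences were tested on simulated data with the same noise at every brightness and the mock detection marks on both arrays. That check therefore does not cover the larger spread of dim spots, and the bounds were not tested. Python 3.11.15 with pandas 2.3.3 and R 4.3.3 with limma 3.58.1 were used.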

Additional observations from a re-analysis of the deposited data

How the results depend on the processing

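No paired analysis was possible because there was 1 array per group. Of 525 alternative values, 443 moved by less than the spread of spots (or, for counts, 1.5 times) and 82 moved by more. Changes of sign numbered 0, but they were counted only for values at least 2-fold, which no member or other Wnt gene reached. Among smaller values, CCND1 and PORCN changed sign under 4 alternatives each and CTNNB1 under 3, while MYC and APC kept theirs. RNF43, ZNRF3, NKD1, SP5 and TCF7 stayed above 0 under every alternative that gave them a value, though RNF43 only by 0.0035 under quantile normalization. AXIN2 was at -0.06 with its brightest probe and at -0.02 with normexp. The share of all genes above 0 ran from 36.2% with no filter to 96.6% with scaling to the spike-ins, against 45.5%. With normexp, whose offset pulls dim differences toward 0, NKD1 was at 0.07 and RSPO4, the only R-spondin compared, at -0.23. Under normexp, CCND1 (0.12), PORCN (0.10) and TLE3 (0.04) lay above 0. Other Wnt genes at least 1.5-fold higher and lower numbered 4 and 3 in the deposited log2 values, 8 and 10 with no filter (where APC was at -0.56) and 0 and 0 with the stricter filter, against 2 and 2. With HOXA5 short RNA, 7 of 7 detected RNA spike-ins were lower (median -0.47), so scaling to them raised every difference and put the median of all genes at 0.45. Under that scaling the member median was 0.72, and 1 member (NKD1) was at least 2-fold higher. The other list medians were 0.57 for other targets, 0.57 for ligands, 0.71 for secretion, 0.53 for receptors, -0.25 for R-spondins, 0.55 for inhibitors, 0.39 for the destruction complex, 0.64 for nuclear partners and 0.53 for all other Wnt genes. Genes at least 2-fold higher and lower then numbered 400 and 8, against 77 and 31, and they were 108 and 20 with median scaling, 37 and 8 with normexp, 215 and 107 in the deposited log2 values, 446 and 564 with no filter, and 35 and 14 with the stricter filter. With no filter the medians were -0.13 for ligands, -0.51 for R-spondins and -0.15 for inhibitors. At 1.5-fold, 1 member was higher. The cause of these shifts was not tested. Dim signal limits NKD1, AXIN2 and the second TCF7 probe, and leaves LGR5, ASCL2, LEF1 and NOTUM without a value.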

Other observations

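In each of the 3 members with more than 1 compared probe (AXIN2, ZNRF3 and TCF7), the dimmest probe gave a higher difference than the brightest one, with a median gap of 0.29. The same held for 9 of 10 other Wnt genes with several compared probes, with a median gap of 0.27, and for 1410 of 2647 such genes on the arrays (53.3%), with a median gap of 0.02. The largest gaps among the Wnt genes were 0.92 for TLE1, a co-repressor, 0.84 for CTNNBIP1, which keeps β-catenin from TCF factors, and 0.62 for EPHB2, and the exception was ROR1, a Wnt receptor, at -0.42. Brightness was compared after the values had been seen, and no test was made. The part of brightness in the members' differences was not tested.

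Copies of a probe on the same array showed how far a single dim spot can stray. The ROR1 probe, with median signals of 28.2 in mock cells and 36.4 with HOXA5 short RNA, had a mean difference of 0.05 over 9 spots that ran from -0.55 to 0.66, and the spot left out as an outlier gave 1.31. The WNT10A probe, with median signals of 13.6 and 17.7, ran from -0.35 to 0.59 around a mean of 0.10 over 10 spots. The difference of NKD1, 0.67, came from 1 spot whose signals, 8.69 and 17.1, lay in this dim range.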
